A study of Mus musculus with 8 samples.

Results

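The adult globin genes Hbb-bs, Hbb-bt, Hba-a1 and Hba-a2, together with Alas2, are 5 mouse transcripts that mark red blood cells and their precursors in a tissue sample. They were chosen by name, and each was looked up in the counts through its Ensembl identifier. Of these 5 genes, 4 were among the 13227 genes counted, and Hba-a2 was not analysed here. RNA was sequenced from whole hearts of FVB/N mice, an inbred strain widely used to make transgenic lines. Hearts A, B, C and E of the transgenic group (4 in all) carried a FASTKD1 transgene; the 4 non-transgenic hearts, here also called the controls, were lettered A, B, D and E. All 8 hearts were labelled male and adult, at 3 months of age, and the series title calls the overexpression cardiac-specific. The sources used here name neither the promoter that drives the transgene nor the number of founder lines.

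Haemoglobin carries oxygen in red cells and is built from alpha-globin and beta-globin chains, each holding a haem group. Maturing red cells fill with globin mRNA, lose their nucleus and, as reticulocytes, still carry that mRNA into the blood. Haem synthesis starts with 5-aminolevulinate synthase, of which Alas2 encodes the erythroid form and Alas1 the form of other tissues. Heart muscle makes haem too, for cytochromes and for myoglobin. FASTKD1 belongs to a family of mitochondrial RNA-binding proteins.

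The globin genes come in near-identical pairs, and the printed stretches show how little there is to tell the copies apart. The 2 beta-globin coding sequences have 444 bases and differ at 1 of them, and the 2 alpha-globin coding sequences have 429 bases and also differ at 1. Each stretch holds 60 coding bases of the GENCODE M21 transcript, 5′ to 3′, with the differing base in capitals (coding bases 385 to 444 of the beta-globins and 351 to 410 of the alpha-globins, counted from the A of the start codon).
Hbb-bs: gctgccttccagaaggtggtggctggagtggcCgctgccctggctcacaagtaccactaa
Hbb-bt: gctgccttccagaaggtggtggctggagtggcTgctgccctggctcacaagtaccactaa
Hba-a1: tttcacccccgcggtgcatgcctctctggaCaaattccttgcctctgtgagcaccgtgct
Hba-a2: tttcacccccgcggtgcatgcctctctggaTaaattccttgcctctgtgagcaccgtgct
Of all 50-base windows of the Hbb-bs transcript, 65.8% also occur in Hbb-bt, and of those of Hba-a1, 67.5% also occur in Hba-a2. The sources used here do not say how reads that match both copies were counted, so the split of counts between Hbb-bs and Hbb-bt is uncertain, and the Hba-a1 count may hold, or lack, reads of its copy. The transcripts are those of the C57BL/6J reference, and FVB/N may differ from it.

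The libraries held between 44584359 (transgenic heart A) and 55769859 (transgenic heart C) counts in genes. Fastkd1 averaged 9932 ± 1162 CPM (counts scaled to a common library size) in transgenic hearts and 70.6 ± 80.9 CPM in the controls (SD, n = 4 each). Non-transgenic heart D, labelled male, had 0 counts over 4 Y-linked genes, against 10372 to 15914 in the other 7 hearts, and 192 CPM of Fastkd1, against 26.3 to 33.8 CPM in the other non-transgenic hearts. Atrial marker genes summed to 3583 CPM in transgenic heart A and 720 CPM in non-transgenic heart D, against 68.9 to 333 CPM in the other 6 hearts. The main results that rest on heart D are given with and without it.

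The 4 measured genes had lower mean levels in transgenic hearts, each at 0.601 to 0.628 times its non-transgenic mean, but hearts of both groups overlapped for every one of them and none passed the threshold of an adjusted p under 0.05 in the edgeR quasi-likelihood test. For comparison, 0.242% of all 13226 genes tested passed it as lower in transgenic hearts, 1.01% as higher and 1.25% in either direction. At an unadjusted p under 0.05, edgeR put 4 of the 4 genes lower in transgenic hearts, a side on which 5.38% of all genes lay (10.7% in either direction). Of all genes tested, 2.8% were lower in transgenic hearts with no overlap between the groups, and none of the 4 genes was among them. DESeq2 called 1 of the 4, Hba-a1, against 3.09% of all genes in either direction, and limma-voom called 0 of the 4, against 1.26% of all genes. In a sample of whole tissue, fewer red cells and less RNA per red cell cannot be told apart.

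**Figure D1:**
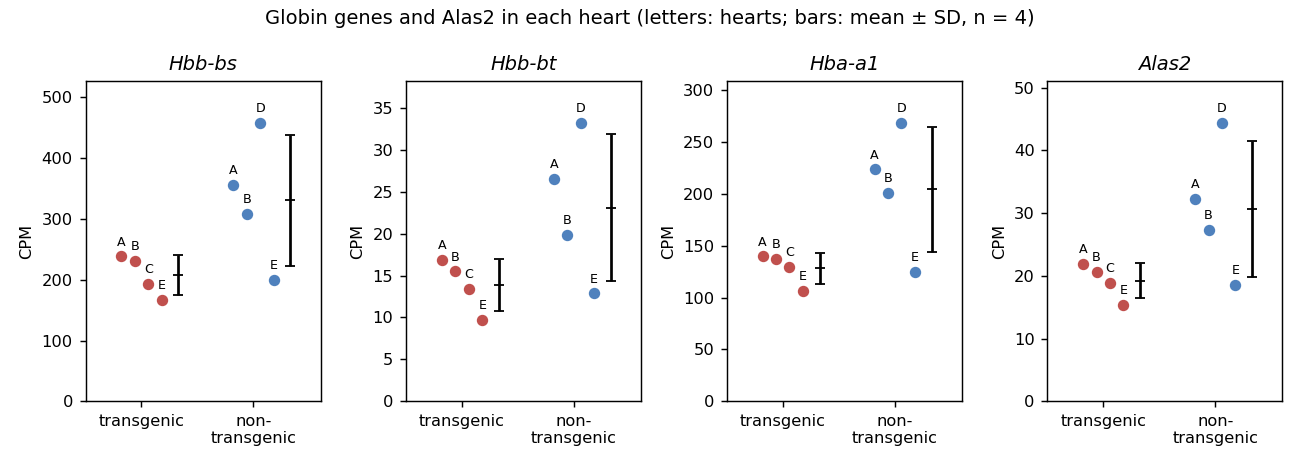
CPM (vertical axes, from 0) of Hbb-bs, Hbb-bt, Hba-a1 and Alas2 in transgenic hearts (left, red) and non-transgenic hearts (right, blue); letters name the hearts, and bars are the mean ± SD (n = 4). Non-transgenic heart D is highest in all 4 panels, and non-transgenic heart E lies among the transgenic hearts.

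Hbb-bs encodes an adult beta-globin chain and lies on chromosome 7 (chr7:103826534-103828096, minus strand, GRCm38). It was measured at 238, 231, 193 and 167 CPM in transgenic hearts A, B, C and E, against 355, 308, 458 and 200 CPM in controls A, B, D and E. Hearts A, B and D of the non-transgenic group lay above all 4 transgenic hearts, and heart E lay between the lowest and the highest of these. Hbb-bs averaged 207 ± 33.3 CPM in transgenic hearts and 330 ± 107 CPM in the controls (SD, n = 4 each). Transgenic over non-transgenic, its log2 fold change came to -0.67 (SE 0.22; adjusted p by edgeR 0.296), and an exact permutation test of log2 CPM over the 70 arrangements of the hearts gave p = 0.0857 (two-sided, smallest possible 0.0286).

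Hbb-bt, the second adult beta-globin gene, is its neighbour on the same strand (chr7:103812524-103813996, GRCm38). It was counted at 16.9, 15.5, 13.4 and 9.74 CPM in transgenic hearts A, B, C and E, against 26.5, 19.8, 33.2 and 12.9 CPM in controls A, B, D and E. The same 3 non-transgenic hearts lay above the transgenic ones, and non-transgenic heart E lay above only transgenic heart E. Hbb-bt averaged 13.9 ± 3.11 CPM in transgenic hearts and 23.1 ± 8.75 CPM in the controls (SD, n = 4 each), a log2 fold change of -0.73 (SE 0.27; adjusted p by edgeR 0.350). Its exact permutation p was 0.143, two-sided. With the counts of Hbb-bs and Hbb-bt added into 1 feature, which removes the uncertain split between them, the log2 fold change was -0.67.

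Hba-a1 encodes the adult alpha-globin chain (chr11:32283511-32284465, plus strand, GRCm38). It was measured at 140, 137, 129 and 107 CPM in transgenic hearts A, B, C and E, against 223, 200.7, 268 and 125 CPM in controls A, B, D and E. Again heart E was the non-transgenic heart that lay within the transgenic range. Hba-a1 averaged 128 ± 14.9 CPM in transgenic hearts and 204 ± 59.97 CPM in the controls (SD, n = 4 each). Its log2 fold change was -0.67 (SE 0.20; adjusted p by edgeR 0.220, exact permutation p = 0.114, two-sided). DESeq2 gave -0.68 with an adjusted p of 0.0332, a call that the main test did not make.

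Alas2 encodes the erythroid enzyme of the first step of haem synthesis and lies on the X chromosome (chrX:150547375-150570638, plus strand, GRCm38). It was measured at 21.9, 20.7, 18.9 and 15.4 CPM in transgenic hearts A, B, C and E, against 32.3, 27.3, 44.4 and 18.5 CPM in controls A, B, D and E. The hearts stood in the order seen for Hbb-bt and Hba-a1. Alas2 averaged 19.2 ± 2.81 CPM in transgenic hearts and 30.7 ± 10.8 CPM in the controls (SD, n = 4 each), with a log2 fold change of -0.67 (SE 0.23; adjusted p by edgeR 0.312, exact permutation p = 0.114, two-sided). The median log2 fold change over all genes tested was 0.01.

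The size of the difference depended on 2 non-transgenic hearts. Without heart D, the log2 fold change was -0.48 for Hbb-bs, -0.51 for Hbb-bt, -0.52 for Hba-a1 and -0.45 for Alas2, with edgeR adjusted p-values of 0.252 to 0.386. Without heart E, it was -0.87 for Hbb-bs, -0.95 for Hbb-bt, -0.87 for Hba-a1 and -0.87 for Alas2. Of these 4, only Hba-a1 then passed the threshold (edgeR adjusted p = 0.0185, against 0.0593 to 0.121 for the other 3). The 4 genes kept a negative log2 fold change in each of the 8 fits that left out 1 heart.

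**Figure D2:**
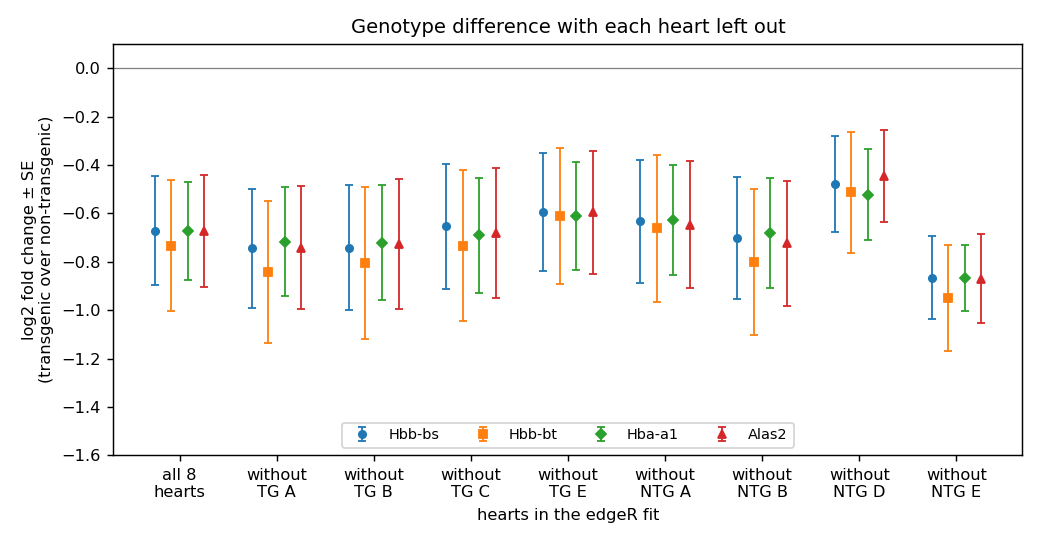
Log2 fold change (vertical axis, transgenic over non-transgenic, bars ± SE) of the 4 genes from the edgeR fit on all 8 hearts and on 7 hearts, with the heart left out named below (TG transgenic, NTG non-transgenic). The points lie nearest to 0 without non-transgenic heart D (-0.52 to -0.45) and farthest from it without non-transgenic heart E (-0.95 to -0.87).

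Compared per kilobase of exon, which adjusts for exon length, Hbb-bs was highest, followed by Hba-a1, Hbb-bt and Alas2. How reads matching both copies were counted is not known, so the globin levels, their order and the ratios below carry that uncertainty. Hbb-bs averaged 270 CPM per kb in transgenic hearts and 430 CPM per kb in the controls. Hba-a1 averaged 158 CPM per kb in transgenic hearts and 252 CPM per kb in the controls. Hbb-bt averaged 19.8 CPM per kb in transgenic hearts and 32.9 CPM per kb in the controls, and Alas2 averaged 8.001 CPM per kb in transgenic hearts and 12.8 CPM per kb in the controls. The order held within each of the 8 hearts, although the ranges over hearts of neighbouring genes overlapped for Hbb-bs with Hba-a1 (217 to 596 against 131 to 330 CPM per kb) and for Hbb-bt with Alas2 (13.9 to 47.2 against 6.42 to 18.5 CPM per kb). Within a heart, Hbb-bs was 1.58 to 1.80 times Hba-a1, Hba-a1 was 6.99 to 9.49 times Hbb-bt, and Hbb-bt was 2.16 to 2.81 times Alas2, each per kb. Myoglobin (Mb), the oxygen-binding globin of muscle, stood far above them at 6300 CPM per kb in transgenic hearts and 8937 CPM per kb in the controls.

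Levels of the 4 genes moved together from heart to heart. Over the 8 hearts, Pearson's r of log2 CPM was 0.976 to 0.995 and Spearman's rho 0.976 to 1 for the 6 pairs among them. Exact permutation p-values adjusted over the 6 pairs (Benjamini-Hochberg) were 4.96e-05 to 7.44e-05 for r, with raw values of 2.48e-05 to 7.44e-05, and 9.92e-05 to 0.000397 for rho, with raw values of 4.96e-05 to 0.000397. Without the 2 hearts farthest from the median of the first gene of a pair, r was 0.951 to 0.990, and with the group means removed it was 0.968 to 0.991. Without non-transgenic heart D, the lowest r of the 6 pairs was 0.957. Hbb-bt, Hba-a1 and Alas2 ranked the hearts in the same order, with non-transgenic heart D highest and transgenic heart E lowest. That covariation joins genes on chromosomes 7, 11 and X.

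**Figure D3:**
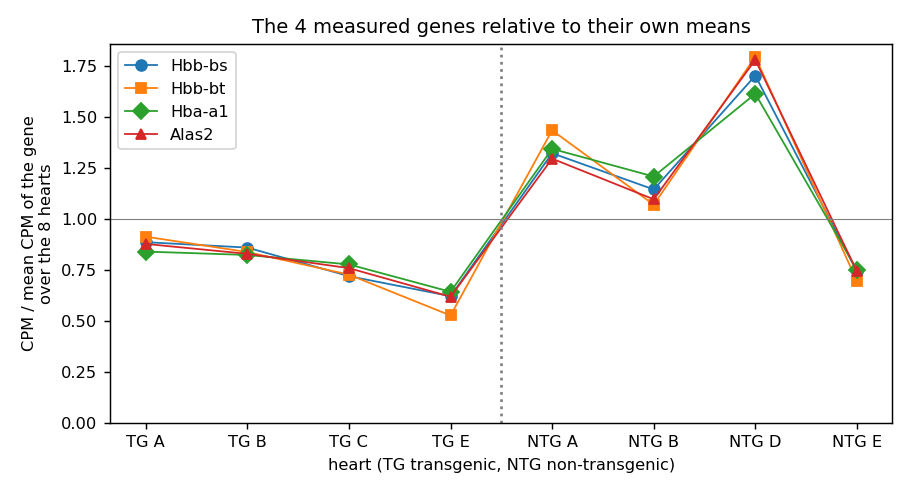
CPM of Hbb-bs, Hbb-bt, Hba-a1 and Alas2 in each heart divided by the gene's own mean over the 8 hearts (vertical axis, no unit), with the transgenic hearts (TG) left of the dotted line and the non-transgenic hearts (NTG) right of it. The 4 lines run close together through all 8 hearts, whose highest and lowest CPM differ by a factor of 2.51 (Hba-a1) to 3.41 (Hbb-bt), or 2.09 to 2.73 without non-transgenic heart D.

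Shares within the globin transcripts varied far less than the globin total. The 3 measured globin genes together took 0.0358% ± 0.00447 of all counts in transgenic hearts and 0.0549% ± 0.0213 in the controls (SD, n = 4 each), and the highest heart was 2.85 times the lowest. Without non-transgenic heart D, the control mean was 0.0451% ± 0.0103 (SD, n = 3) and the highest heart was 1.87 times the lowest. Hba-a1 made up 36.8% ± 1.49 of the globin counts in transgenic hearts and 36.8% ± 1.105 in the controls, with a highest-to-lowest ratio of 1.09 over the 8 hearts. Hbb-bt made up 6.23% ± 0.500 of the beta-globin counts in transgenic hearts and 6.45% ± 0.472 in the controls. It ranged from 5.51% in transgenic heart E (95% Wilson interval 5.05 to 6.01%) to 6.95% in non-transgenic heart A (6.58 to 7.34%). Alas2 made up 5.22% ± 0.0969 of the Alas2 and globin counts in transgenic hearts and 5.18% ± 0.258 in the controls. Without non-transgenic heart D, the control shares were 37.3% ± 0.620 for Hba-a1, 6.35% ± 0.519 for Hbb-bt and 5.07% ± 0.144 for Alas2 (SD, n = 3). The intervals cover counting error only, and the shares of near-identical copies carry the uncertainty of their split.

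**Figure D4:**
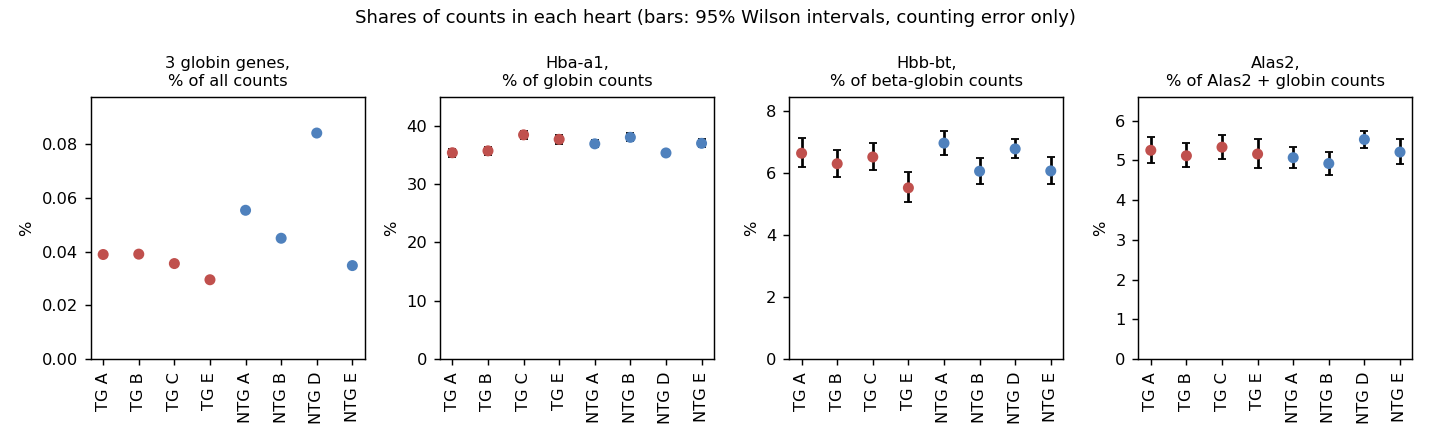
Share of counts in percent (vertical axes, from 0) in each transgenic (TG, red) and non-transgenic (NTG, blue) heart, with 95% Wilson intervals for counting error. The globin share of all counts runs from 0.0296% to 0.0842%, while the shares of Hba-a1, Hbb-bt and Alas2 within the globin and Alas2 counts stay within 35.3 to 38.4%, 5.51 to 6.95% and 4.92 to 5.53%.

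The spread of the 4 genes between hearts of 1 genotype was larger than that of most genes. Their SD of log2 CPM within groups was 0.356 for Hba-a1, 0.393 for Hbb-bs, 0.402 for Alas2 and 0.484 for Hbb-bt, which put them at the 85.0 to 93.2 percentile of all genes. Without non-transgenic heart D, they lay at the 81.9 to 92.1 percentile. The counts behind these values ran from 481 (Hbb-bt in transgenic heart E) to 25263 (Hbb-bs in non-transgenic heart D).

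No other gene tracked the globins as closely as Alas2 did. Across the 8 hearts, Alas2 had an r of 0.995 to the mean log2 CPM of Hbb-bs, Hbb-bt and Hba-a1 (0.991 with group means removed, 0.9996 without non-transgenic heart D), and 0 of 12870 other genes whose log2 CPM averaged 0 or more reached its r, with or without heart D. Of these genes, 7 had an r of at least 0.9. Isg20, an exonuclease for single-stranded RNA, came first with 0.958, followed by Sh3bgrl3 with 0.953. Next came Bpgm, the red cell enzyme that makes 2,3-bisphosphoglycerate and so sets the oxygen affinity of haemoglobin, with 0.927. Further genes among the first 10 were Cyp26b1 (0.917), Scgb1c1 (0.909), Pdzd3 (0.903), Hmgn2 (0.897), Gm4707 (0.897) and Thy1 (0.896). Without non-transgenic heart D, the r of Isg20 was 0.937, of Bpgm 0.903 and of Cyp26b1 0.845. That of Hmgn2 was then 0.808, of Gm4707 0.801 and of Thy1 0.815. These r values are descriptions of the genes closest among 12870, and all share the same 8 libraries.

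Bpgm was measured at 21.1, 20.2, 17.7 and 15.7 CPM in transgenic hearts A, B, C and E, against 25.0, 20.3, 25.2 and 19.3 CPM in controls A, B, D and E. Its log2 fold change was -0.27 (edgeR adjusted p = 0.517). Bpgm was highest in non-transgenic heart D, as were the globins, and the groups overlapped.

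The values of other red cell genes were mixed. Of 37 listed genes of the red cell membrane and of red cell maturation, 24 were counted. None of the 24 passed edgeR's threshold in either direction. At an unadjusted p under 0.05 edgeR put 2 higher, Slc2a1 among them, and 1 lower (Isg20). Of all 13226 genes it put 710 higher and 711 lower. DESeq2 called 1 of the 24 (Slc2a1) and limma-voom 0. The median log2 fold change of the 24 was 0.00, and their summed level was 1547 to 1653 CPM in transgenic hearts and 1509 to 1710 CPM in the controls. Without non-transgenic heart D, Slc2a1, a glucose transporter, passed edgeR's threshold (log2 fold change 0.64, adjusted p = 0.0128). In the 7 other fits that left out 1 heart it did not (highest edgeR adjusted p 0.476). Defining red cell genes such as Slc4a1 and Ahsp were not analysed here, and many of the 24 are known to be expressed outside red cells too.

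Of 12 erythroid transcription factors and receptors listed, 8 were counted and none passed edgeR's threshold. The median log2 fold change of the 8 was 0.10, with 2 genes below 0 and 6 above. At an unadjusted p under 0.05 edgeR put 1 lower, Epor, the erythropoietin receptor, against 5.38% of all genes. DESeq2 and limma-voom called 0 of the 8. Epor averaged 1.04 ± 0.200 CPM in transgenic hearts and 1.58 ± 0.534 CPM in the controls (SD, n = 4 each; log2 fold change -0.59, edgeR adjusted p = 0.462). Without non-transgenic heart A, the log2 fold change of Epor was -0.33. Lmo2, a partner of these factors in blood and vessel cells, had a log2 fold change of 0.17 (edgeR adjusted p = 0.610). Gata1 and Klf1 were not analysed here.

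The promoters of the 4 genes were read for textbook erythroid elements, since their transcripts moved together. The 250 bases before each RefSeq gene start (GRCm38.p6) were searched on both strands. These starts, from which the distances are counted, lie 168 bases inside the GENCODE gene given above for Hbb-bs, 73 for Hbb-bt, 161 for Hba-a1 and 42 for Alas2, so that some sites fall within the GENCODE gene. The GATA motif was read as AGATAA in its commonest form, and also with T as the first letter, with G as the last or with both. The CACCC box was read as the letters CCACCC. The other elements were the CCAAT box and the TATA box, which was read with those letters followed by AA, and once more with C in place of its first T. A GATA match was found in Hbb-bs, Hba-a1 and Alas2 and not in the Hbb-bt window, against 26.5% of 32851 promoters. The sites are printed in the direction of the gene with the match in capitals (that of Alas2 reads AGATAA on the opposite strand).
Hbb-bs, chr7:103828121-103828150, minus strand, 210 bases before the start: tgttctctgcacAGATAAggacaaacatta
Hba-a1, chr11:32283477-32283506, plus strand, 183 bases before the start: tgtccgggcaacTGATAAggattccctgca
Alas2, chrX:150547319-150547348, plus strand, 86 bases before the start: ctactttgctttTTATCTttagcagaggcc
A CACCC box stood in Hbb-bt, Hba-a1 and, as 3 adjoining matches on the opposite strand, Alas2, and in 28.1% of all promoters.
Hbb-bt, chr7:103814047-103814076, minus strand, 141 bases before the start: cctgggccatagCCACCCtgtgtagatatg
Hba-a1, chr11:32283599-32283628, plus strand, 61 bases before the start: ccaagggcgtgtCCACCCtgcctggaggac
Alas2, chrX:150547365-150547394, plus strand, 40 bases before the start: cgaggcggaaggGGGTGGggtggggtgggc
CCAAT had 1 match in Hbb-bs, 3 in Hbb-bt (on either strand) and 1 in Hba-a1, and 33.8% of all promoters hold it. The TATA letters were found in Hbb-bt and, on the opposite strand, Alas2 (12.4% of all promoters), and the form with C in none of the 4 (10.8% of all). None of these elements, as spelled here, was common to all 4 windows, and a match describes the letters, not a bound site. Other spellings were not searched, so a window without a match may still hold another form of the element. The RefSeq windows of Hba-a1 and Hba-a2, which run on past the start, were identical over 297 of 297 bases compared, with their starts set 3 bases apart.

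Among the 17 genes of haem synthesis and its mitochondrial transport that were listed, all were counted, 1 rose, none fell and 16 did not pass edgeR's threshold. Of all genes tested, 1.01% rose past it. The listed gene that rose was Slc25a39, a mitochondrial carrier that imports glutathione. It was measured at 134, 184, 168 and 166 CPM in transgenic hearts A, B, C and E, against 113, 79.3, 99.5 and 112 CPM in controls A, B, D and E. Every transgenic heart lay above every non-transgenic one, and the exact permutation p was the smallest possible, 0.0286 (two-sided). The share of all genes that were higher without overlap is not given here. Slc25a39 averaged 163 ± 21.2 CPM in transgenic hearts and 101 ± 15.6 CPM in the controls (SD, n = 4 each). Its log2 fold change was 0.69 (SE 0.14, adjusted p by edgeR 0.0418). Its call was lost in 6 of the 8 fits that left out 1 heart (without transgenic heart B, C or E, or non-transgenic heart A, D or E; highest edgeR adjusted p 0.172) and with scaling by library totals alone (edgeR adjusted p = 0.103). DESeq2 and limma-voom made the call.

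The remaining haem synthesis genes gave smaller values, 13 of the 17 with a log2 fold change below 0 and 4 above, with a median of -0.10. Alas1, the housekeeping counterpart of Alas2, was measured at 144, 172, 193 and 119 CPM in transgenic hearts A, B, C and E, against 200, 195, 178 and 242 CPM in controls A, B, D and E. Its lowest non-transgenic value was that of heart D, the heart in which Alas2 was highest. The log2 fold change of Alas1 was -0.38 (SE 0.16; adjusted p by edgeR 0.421). Fech, the enzyme that inserts iron into the finished ring, averaged 118 ± 4.99 CPM in transgenic hearts and 135 ± 12.8 CPM in the controls (SD, n = 4 each; log2 fold change -0.20, edgeR adjusted p = 0.488). Alad, the second enzyme of the pathway, had a log2 fold change of -0.23 (edgeR adjusted p = 0.574).

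**Figure D5:**
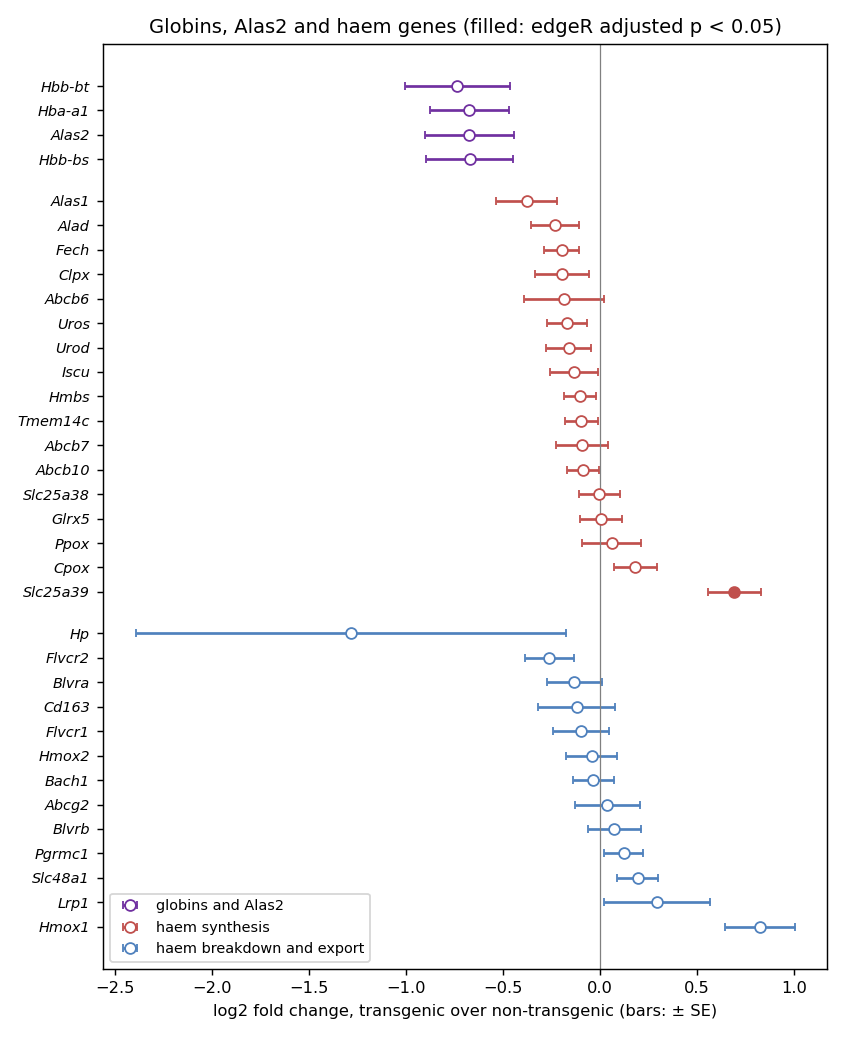
Log2 fold change (horizontal axis, transgenic over non-transgenic, bars ± SE) of the globins and Alas2 (purple), of haem synthesis genes (red) and of genes of haem breakdown and export (blue; Fech, on both lists, is drawn once), with filled points for genes past the edgeR threshold. The globins and Alas2 lie at -0.73 to -0.67 with open points, and the only filled point is Slc25a39 at 0.69.

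None of the 14 counted genes of haem breakdown and export passed edgeR's threshold. At an unadjusted p under 0.05 edgeR put 1 higher, Hmox1, against 710 of all 13226 genes. DESeq2 called the same 1 gene and limma-voom 0. Hmox1, the inducible haem oxygenase that degrades haem, was measured at 13.1, 13.0, 14.9 and 22.2 CPM in transgenic hearts A, B, C and E, against 8.39, 9.60, 9.94 and 7.77 CPM in controls A, B, D and E. The groups did not overlap, though the share of all genes that were higher without overlap is not given here. The log2 fold change was 0.82 (SE 0.18, adjusted p by edgeR 0.0655, DESeq2 adjusted p = 0.00159). Without transgenic heart A, Hmox1 passed edgeR's threshold (log2 fold change 0.90, adjusted p = 0.0493). In the other fits that left out 1 heart it did not (edgeR adjusted p 0.0828 to 0.221). Flvcr2, a transporter of the same list, had a log2 fold change of -0.26 (edgeR adjusted p = 0.515), and Slc48a1, which moves haem out of lysosomes, had one of 0.19 (edgeR adjusted p = 0.586).

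Of 18 counted iron genes, none passed edgeR's threshold, 1 had an unadjusted p under 0.05 (Hamp, higher), and DESeq2 and limma-voom called 0. Of all genes, 10.7% had an unadjusted p under 0.05 by edgeR in either direction. Hamp, which encodes the iron hormone hepcidin, was measured at 4.88, 3.16, 0.118 and 0.0202 CPM in transgenic hearts A, B, C and E, against 0 to 0.362 CPM in the controls, so that its value rests on transgenic hearts A and B (log2 fold change 3.48, edgeR adjusted p = 0.373). Tfrc, the transferrin receptor through which red cell precursors and muscle take up iron, was measured at 149, 303, 319 and 92.3 CPM in transgenic hearts A, B, C and E, against 151, 149, 139 and 237 CPM in controls A, B, D and E. Transgenic hearts B and C were high and transgenic heart E low, so that the transgenic values enclosed all non-transgenic ones (log2 fold change 0.35, SE 0.36, edgeR adjusted p = 0.808). Slc40a1, the iron exporter ferroportin, had a log2 fold change of -0.36 (edgeR adjusted p = 0.514), and Fth1, the heavy chain of the iron store ferritin, one of 0.17 (edgeR adjusted p = 0.622).

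Red cell precursors match globin synthesis to haem through the kinase HRI, encoded by Eif2ak1, which phosphorylates eIF2alpha when haem is short and also acts under mitochondrial stress through Oma1 and Dele1. Eif2ak1 averaged 29.6 ± 0.686 CPM in transgenic hearts and 28.4 ± 1.45 CPM in the controls (SD, n = 4 each; log2 fold change 0.06, edgeR adjusted p = 0.843). Of the 6 genes on this list, 2 rose, none fell and 4 did not pass, while 1.01% of all genes rose past edgeR's threshold. Atf4, the transcription factor at the end of the branch, rose to 161 ± 23.8 CPM in transgenic hearts, against 65.9 ± 4.57 CPM in the controls (log2 fold change 1.29, SE 0.12, edgeR adjusted p = 0.000265). Ddit3, its target, rose to 33.7 ± 2.47 CPM in transgenic hearts, against 17.8 ± 2.52 CPM in the controls (log2 fold change 0.92, SE 0.12, edgeR adjusted p = 0.00233). The log2 fold change of Oma1 was -0.25 (edgeR adjusted p = 0.433) and that of Dele1 was -0.17 (edgeR adjusted p = 0.614). Several other kinases are also known to feed into Atf4.

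Of the other globins, 2 of 11 listed genes were counted, and neither passed edgeR's threshold. Mb was measured at 9950, 9699, 8933 and 9013 CPM in transgenic hearts A, B, C and E, against 14633, 15677, 11337 and 11690 CPM in controls A, B, D and E. The groups did not overlap, as for 2.8% of all genes on the lower side. The log2 fold change of Mb was -0.50 (SE 0.12, adjusted p by edgeR 0.111, DESeq2 adjusted p = 0.00290). Without non-transgenic heart D, Mb passed edgeR's threshold (log2 fold change -0.58, adjusted p = 0.0433). In the 7 other fits that left out 1 heart it did not (highest edgeR adjusted p 0.308). Unlike the red cell globins, Mb was lowest among the non-transgenic hearts in heart D. Cytoglobin (Cygb) had a log2 fold change of 0.06 (edgeR adjusted p = 0.945).

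Marker genes of other blood cells and of heart cells are given for comparison. Platelet markers (8 of 12 counted) summed to 18.8 to 32.8 CPM in transgenic hearts and 18.2 to 54.3 CPM in the controls, and neutrophil markers (5 of 14) to 5.14 to 11.9 CPM in transgenic hearts and 6.36 to 12.3 CPM in the controls. Lymphocyte markers (6 of 16) summed to 11.7 to 15.4 CPM in transgenic hearts and 12.7 to 21.5 CPM in the controls, and macrophage markers (10 of 12) to 294 to 428 CPM in transgenic hearts and 297 to 459 CPM in the controls. In non-transgenic heart D, highest for the globins, the platelet sum was 21.2 CPM, the neutrophil sum 7.28 CPM and the lymphocyte sum 12.7 CPM, none of which was the highest of its group. Log2 fold changes lay below 0 for 7 of 8 platelet, 5 of 5 neutrophil, 6 of 6 lymphocyte and 10 of 10 macrophage markers. Of all 13226 genes tested, 6455 lay below 0. The medians were -0.53 for platelet, -0.25 for neutrophil, -0.55 for lymphocyte and -0.13 for macrophage markers. None of these 29 genes passed edgeR's threshold. At an unadjusted p under 0.05 edgeR put 3 lower (Alox12 of platelets, Ccl5 of lymphocytes and Ccr2 of macrophages), and DESeq2 and limma-voom called 0. Of all genes, 5.38% were lower at that unadjusted p.

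Cardiomyocyte markers (10 of 10) summed to 60797 to 65629 CPM in transgenic hearts and 75756 to 86927 CPM in the controls, with no overlap. None of the 10 passed edgeR's threshold, and limma-voom called 0. At an unadjusted p under 0.05 edgeR put 8 lower, a side on which 5.38% of all genes lay. DESeq2 called 4 lower (Myh6, Tnnt2, Myl2 and Pln), against 159 of 13201 genes in all. The median log2 fold change was -0.31 for this list and -0.06 for the endothelial markers (12 of 12), which summed to 1294 to 1356 CPM in transgenic hearts and 1396 to 1671 CPM in the controls. The endothelial sums did not overlap either. Of the 12 endothelial genes, DESeq2 called 1 lower (Fabp4), and edgeR and limma-voom called 0. Smooth muscle and pericyte markers (9 of 10 counted) had a median log2 fold change of 0.12, with 6 genes above 0. DESeq2 called 1 of them higher (Acta2), limma-voom called 1 and edgeR 0. Fibroblast markers (10 of 10) had a median of 0.04, with 5 genes above 0 and none called by the 3 methods. The sums of both lists overlapped between the groups. The part of tissue make-up in the globin and Alas2 values was not tested.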

How the data were processed

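Whole hearts were taken up in Trizol and libraries made with a TruSeq kit, per the labels' protocols. For each library the authors deposited raw, whole-number read counts, listed by Ensembl identifier. The submitters' processing notes name cutadapt 1.15, TopHat2 and the builds GRCm38 and mm10; the counter, the annotation and whether strand was kept are not given in the sources used here. Every listed gene reached about 1 CPM in at least 2 libraries (lowest second-highest CPM 1.003), so low genes were not analysed here.

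The fit used edgeR 4.0.16 (R 4.3.3) with filterByExpr (13226 genes kept), TMM scaling and the two-sided quasi-likelihood F test of transgenic against non-transgenic hearts, Benjamini-Hochberg adjusted over all genes, threshold 0.05. The test was checked on simulated data. CPM use TMM library sizes; log2 CPM of single hearts use a prior count of 2. The SE is the absolute log2 fold change over the square root of F. DESeq2 1.42.0, limma-voom (limma 3.58.1), other scalings and left-out hearts were alternatives. Symbols, exon lengths and coordinates are from GENCODE M21. Permutation tests were run in R for the groups and in Python 3.11.15 for the correlations, and scipy 1.17.1 gave the Wilson intervals. Each heart was treated as 1 animal.

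The members and gene lists were chosen with earlier results of these data known. Named genes were the members, up to 4 genes with the smallest edgeR p per list (2 per marker list), 7 genes set by name (Alas1, Fech, Mb, Hmox1, Eif2ak1, Tfrc, Fastkd1) and the 10 genes closest to the globins. Other genes named (those that DESeq2 called in a list) were chosen after their values were seen. Some genes that this rule names are not reported here.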

Additional observations from a re-analysis of the deposited data

Results flagged for a closer look

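In groups of 4 hearts, 1 heart stood apart from the other 3 of its group (Dixon's test at the 95% level) in 13 of 134 groups tested; chance flags about 1 in 20. None of these concerned Hbb-bs, Hbb-bt, Hba-a1 or Alas2. Among transgenic hearts, heart A had 5.61 CPM of Cnn1 (others 0.789 to 1.52), 69.8 CPM of Fgf12 (others 1.98 to 6.56) and 159 CPM of Dkk3 (others 1.54 to 18.6). Transgenic heart C had 1.27 CPM of Igkc (others 0.951 to 0.960), and transgenic heart E had 5.61 CPM of Sh3bgrl3 (others 6.65 to 6.87).

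Among non-transgenic hearts, heart D had 11.9 CPM of Slc2a1 (others 8.24 to 8.51), 26.2 CPM of Dkk3 (others 1.69 to 4.56), 0 CPM of Kdm5d (others 19.8 to 22.5) and 192 CPM of Fastkd1 (others 26.3 to 33.8). Non-transgenic heart E, lowest of its group for the globins, had 237 CPM of Tfrc (others 139 to 151), 5.92 CPM of Scgb1c1 (others 10.6 to 11.3) and 5.33 CPM of Pdzd3 (others 7.27 to 7.50). Non-transgenic heart B had 18.5 CPM of Zbtb7a (others 34.9 to 37.2).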

How the results depend on the processing

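The log2 fold changes of Hbb-bs, Hbb-bt and Alas2 kept their sign and did not pass the threshold under any of the 17, 16 and 16 alternatives tried for each, over ranges of -0.87 to -0.42, -0.95 to -0.47 and -0.87 to -0.41. Hba-a1 was called under 2 of 16: DESeq2 (-0.68, adjusted p = 0.0332) and without non-transgenic heart E; over the fits leaving out 1 heart it was -0.87 to -0.52. The number of genes called in all was 165, against 408 with DESeq2 and 276 without transgenic heart A and non-transgenic heart D. The lowest r among the 4 genes was 0.957 to 0.987 with 1 heart left out, and 0.974 without those 2 hearts; these were added after seeing the data. With the title letter as a replicate block, the log2 fold changes were -0.42 for Hbb-bs, -0.47 for Hbb-bt, -0.49 for Hba-a1 and -0.41 for Alas2 (edgeR adjusted p 0.248 to 0.329), Slc25a39 lost its call (0.240), Hamp gained one (log2 fold change 4.58, adjusted p = 0.0306), and 124 genes were called. Letters C and D each occur in 1 group only, so the genotype difference of this fit comes from letters A, B and E. Same-letter deviations correlated at 0.297 for A, -0.08 for B and 0.360 for E, and A and E but not B correlated best with their own letter, so the letters were not taken as pairs. Among the other named genes, Cygb ran from -0.10 (without non-transgenic heart B) to 0.18 over the fits leaving out 1 heart, and Tfrc turned to -0.11 under the replicate block. Summing Hba-a1 with Hba-a2 was not run, since Hba-a2 was not analysed here. With 4 hearts a group and 1 of 4 non-transgenic hearts inside the transgenic range, the globin difference rests on few hearts; the cause of the changes between alternatives was not tested.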
